A study of Mus musculus with 15 samples.

Results

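Transcripts of 7 genes that govern germ cell and oocyte identity were followed in mouse 2-cell embryos. Nuclear actin had been manipulated in some of the embryos, and others were not injected. The genes are Ddx4, Dazl, Figla, Nobox, Lhx8, Sohlh1 and Kit. They were taken by gene symbol from a table of 53023 genes, and each symbol had 1 row. Of the 7, 5 reached a mean of 1 FPKM (fragments scaled by gene length and library size) over the 6 libraries and were tested. Figla and Sohlh1 did not reach it.

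The study asked how gene expression in the early mouse embryo responds when actin filaments in the nucleus are disrupted. Each library was made from 1 pool of 5 ICR embryos, collected 32 hours after insemination, and injected embryos had received mRNA 2 hours after insemination. The 6 libraries fall into 3 pairs of pools, called A, B and C, and are numbered as in the titles. What each pair received is uncertain, because the titles and the annotation of injected mRNA contradict each other. By the titles, pair A is wild type (Wt), pair B is R62D and pair C is the non-injected control. By the annotation, pair A was not injected, pair B received actinWT-HA-NLS and pair C received actinR62D-HA-NLS. R62D is an actin mutant that does not polymerise, HA is an epitope tag and NLS is a nuclear localisation signal. No pair was reassigned from its values, and every comparison below is named by pair. No label states that pools of 1 pair were bred or collected separately, and p-values therefore cover only the variation among these pools, which may be technical. The other 9 libraries of the series, with Exportin 6 plus R62D, actin G15S and a further non-injected control, were not analysed here.

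The genes act at successive steps of germ cell life. Sohlh1, Lhx8, Figla and Nobox are transcription factors that switch on the oocyte programme in the ovary, where oocytes are formed. Ddx4 and Dazl are RNA-binding proteins of the germ line that control translation and RNA stability, and Kit is the cell surface receptor through which the ligand Kitl promotes survival and growth of germ cells and oocytes. A 2-cell embryo has inherited most of its early RNA from the oocyte, and much of that RNA is degraded as the embryo's own genome becomes active.

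The libraries held 907210 to 1555431 assigned reads. Markers of the labelled stage were present in each of the 6 libraries. The 2-cell-stage gene Zfp352 measured 111.2 to 320.7 FPKM and Zscan4d, of a gene family of the same stage, 72.6 to 214.5 FPKM. Correlations across genes were 0.896 to 0.910 between libraries of the same pair and 0.895 to 0.923 between libraries of different pairs. Libraries A2 and C2 stood apart from the other 4 on principal component 1, with scores of 49.3 and 49.7 against -32.7 to -11.1. On 4 Y-linked genes B2 had 0 reads (which allows up to 3), while the other 5 libraries had 89 to 233. Member values that moved by over 1.5 times without 1 of these libraries are given beside each comparison. For Ddx4 in C against A the range is given instead.

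The members were measured on 1465 reads in total, of which 1353 fell on Dazl, Ddx4 and Kit. Each of the 33 member values above 0 was a whole number of reads (tolerance 0.001 read). No other gene of GENCODE M21 overlaps any of the 7 on either strand, so no reads were split with an overlapping or antisense gene in that annotation. In length-scaled level the order was Dazl, with a mean of 36.3 FPKM over the 6 libraries, Ddx4 with 17.4, Lhx8 with 3.64, Kit with 3.14, Nobox with 2.83, Figla with 0.40 and Sohlh1 with 0.33 FPKM. Dazl was above Ddx4 in each of the 6 libraries. The ranges of Lhx8, Kit and Nobox overlapped, and their order changed between libraries. The FPKM ratio of Kit to Lhx8 was 0.52 (A2) to 0.83 (B2) in pairs A and B, and 1.04 in C1 and 1.14 in C2. Dazl lay above 84.4% of the 13443 tested genes in mean level, Ddx4 above 74.1%, and Lhx8, Kit and Nobox above 38.9%, 34.6% and 31.7%.

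**Figure D1:**
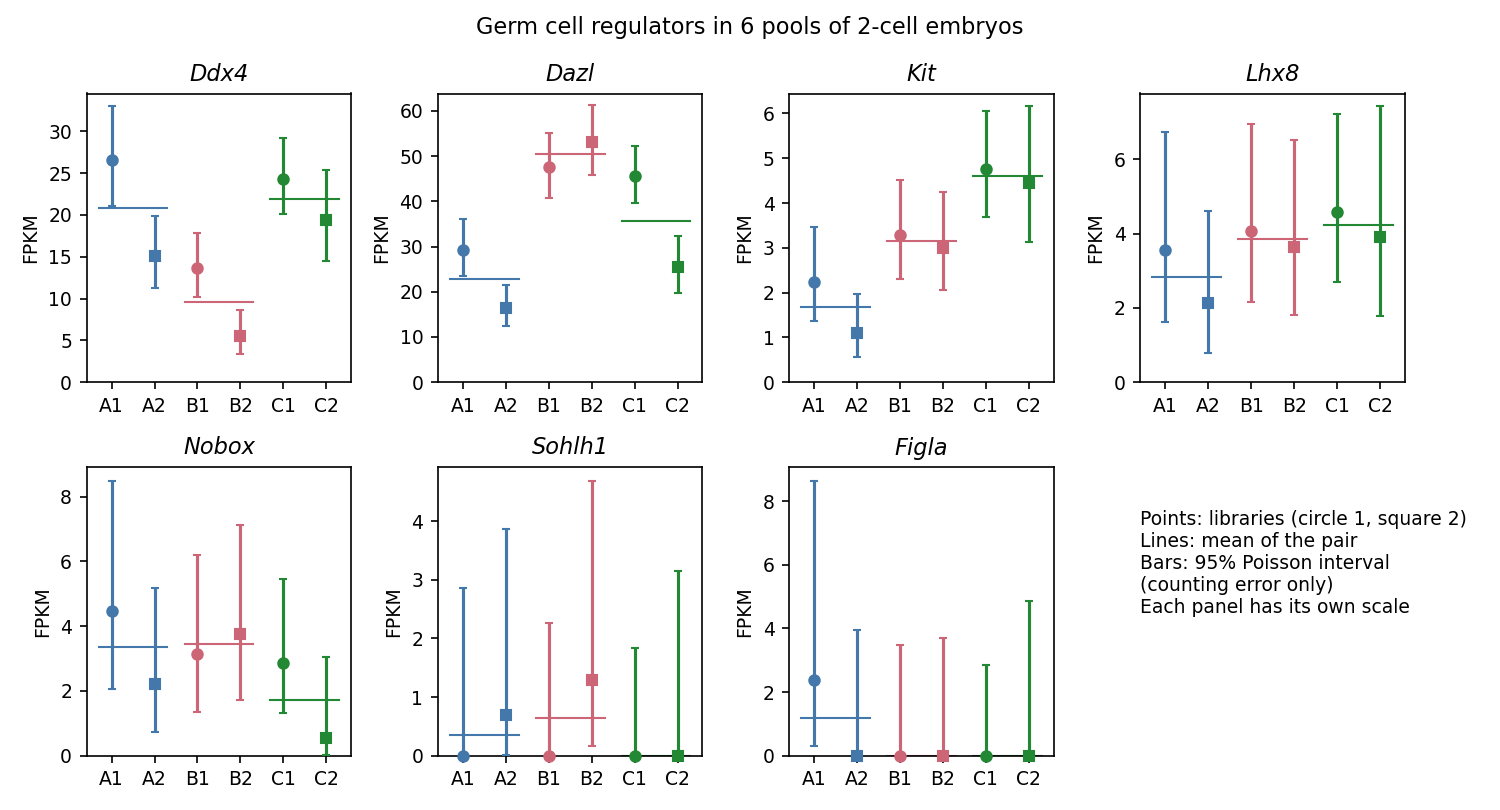
FPKM of each of the 7 genes (vertical axis, its own scale in each panel, starting at 0) in the 6 libraries (horizontal axis); lines are pair means and bars 95% Poisson intervals for counting error. Kit is lowest in pair A and highest in pair C without overlap, Dazl is highest in pair B, Ddx4 is lowest in pair B, and Figla and Sohlh1 are at 0 in most libraries.

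The promoters of the 3 genes with the most reads are shown because these genes carry the 3 differences between pairs with an unadjusted p below 0.05, a choice made after the values were seen. All 7 genes matched the RefSeq promoter table (build GRCm38.p6, 250 bases before to 50 after the start). For some genes that start differs from the start of the gene span given below. The spans of Ddx4 and Kit reach into their windows and cover the marked E-boxes. The Figla window lies wholly within the span of its gene. Capitals mark the E-box CANNTG, a motif bound by basic helix-loop-helix factors, the class to which Figla and Sohlh1 belong. The motif reads the same on both strands when N is any base.
Dazl, chr17:50293571-50293870, minus strand: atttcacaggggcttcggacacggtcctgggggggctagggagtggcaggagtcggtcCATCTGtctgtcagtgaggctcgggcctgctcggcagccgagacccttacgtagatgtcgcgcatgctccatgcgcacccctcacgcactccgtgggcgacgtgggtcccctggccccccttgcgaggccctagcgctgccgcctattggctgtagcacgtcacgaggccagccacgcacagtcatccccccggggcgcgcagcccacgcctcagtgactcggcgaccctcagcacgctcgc
Ddx4, chr13:112652261-112652560, minus strand: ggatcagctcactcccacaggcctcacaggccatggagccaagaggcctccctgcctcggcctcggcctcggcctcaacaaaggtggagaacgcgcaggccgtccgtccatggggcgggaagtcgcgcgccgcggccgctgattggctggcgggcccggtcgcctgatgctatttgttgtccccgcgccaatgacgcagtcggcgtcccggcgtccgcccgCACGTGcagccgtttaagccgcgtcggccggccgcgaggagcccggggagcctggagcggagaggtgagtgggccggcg
Kit, chr5:75574737-75575036, plus strand: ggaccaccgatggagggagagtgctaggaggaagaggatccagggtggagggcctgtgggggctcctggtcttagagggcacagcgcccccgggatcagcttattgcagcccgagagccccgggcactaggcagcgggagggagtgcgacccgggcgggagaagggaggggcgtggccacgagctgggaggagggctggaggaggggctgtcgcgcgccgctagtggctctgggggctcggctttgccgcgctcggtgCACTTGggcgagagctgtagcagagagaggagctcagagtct

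Each of the 3 windows held 1 E-box, and 72.3% of the 32851 promoter windows in the table held at least 1. The other members' windows held 5 (Sohlh1), 4 (Figla), 2 (Nobox) and 0 (Lhx8). The E-box of the Ddx4 window is the palindrome CACGTG, which occurs in 7.15% of all windows, and the Sohlh1 window held 3 copies of it. The homeobox motif TAATTG, searched on both strands because Nobox binds it, occurred in 0 of the member windows and in 8.0% of all windows. The Ddx4 window had 38 CG dinucleotides, the Dazl window 28 and the Kit window 20, against a median of 7 over all windows. The Lhx8 window had 4. A match of letters is a description of the sequence and not evidence of binding.

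Among the RNA-binding proteins, Dazl was highest in pair B and lowest in pair A. Dazl binds messenger RNAs and promotes their translation in germ cells and maturing oocytes. It spans bases 50279394 to 50293599 on the minus strand of chromosome 17 (mm10). It measured 29.2 FPKM in A1 and 16.4 in A2, 47.6 in B1 and 53.2 in B2, and 45.7 in C1 and 25.5 in C2. Both B libraries were above all 4 others, and pairs A and C overlapped. The nearest values, in B1 and C1, had overlapping 95% Poisson intervals of 40.8 to 55.1 and 39.7 to 52.3 FPKM. Of all tested genes, 31.7% had no overlap between pairs B and A, and 30.2% between C and B. The share with pair B apart from both others was not counted. The values rested on 54 reads (A2) to 209 reads (C1). The pair means were 22.8 ± 9.06 FPKM for A, 50.4 ± 3.99 for B and 35.6 ± 14.3 for C (SD, n = 2). The lowest library of pair C, C2, and of pair A, A2, were those set apart on principal component 1. The part of that shift in the levels of Dazl was not tested.

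Ddx4 had another pattern, with its lowest levels in pair B. It encodes the germ line DEAD-box RNA helicase, the mouse homologue of Drosophila Vasa, and lies on the minus strand of chromosome 13, bases 112598333 to 112652475. Ddx4 measured 26.5 FPKM in A1, 15.1 in A2, 13.6 in B1, 5.55 in B2, 24.3 in C1 and 19.4 in C2. Both B libraries were below the other 4, and pairs A and C overlapped. The nearest values, in B1 and A2, had overlapping 95% Poisson intervals of 10.2 to 17.9 and 11.3 to 19.9 FPKM. The shares of all tested genes given for Dazl apply here too. The lowest value, in B2, rested on 20 reads, with a 95% Poisson interval of 3.39 to 8.58 FPKM, and the highest count was 114 reads in C1. These intervals describe counting error alone. They can be too narrow even for that, because PCR duplicates cannot be recognised without molecular identifiers. In pools of whole embryos, fewer cells with a transcript and less of it per cell cannot be told apart.

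A ratio of both transcripts within a library does not depend on how libraries are scaled to each other. This measure was chosen after the values were seen and has no test. The FPKM ratio of Dazl to Ddx4 was 1.10 in A1 and 1.08 in A2, 1.88 in C1 and 1.31 in C2, and 3.49 in B1 and 9.58 in B2. Dazl took 51.8% of the reads on the 2 genes in A1 (exact 95% interval 43.9 to 59.6) and 51.4% in A2 (41.5 to 61.3). The share was 77.3% in B1 (71.3 to 82.6), 90.3% in B2 (85.5 to 94.0), 64.7% in C1 (59.2 to 69.9) and 56.2% in C2 (46.9 to 65.2). The 2 B libraries lay above the other 4, which follows from the levels of Dazl and Ddx4 given above and adds no separate evidence. Their intervals did not overlap those of the others, nor each other. The intervals cover counting error and not the spread between pools.

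**Figure D2:**
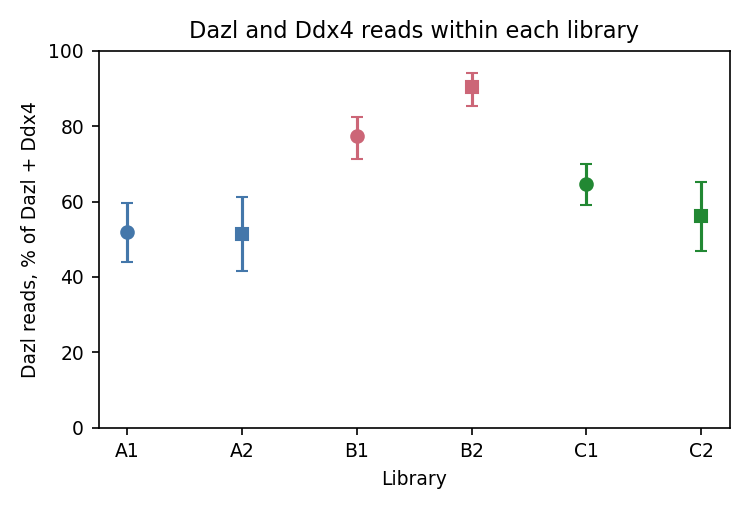
Reads on Dazl as a percentage of the reads on Dazl and Ddx4 together (vertical axis, 0 to 100) in each library (horizontal axis), with exact 95% intervals for counting error. B1 and B2, at 77.3% and 90.3%, lie above the other 4 libraries, which range from 51.4% to 64.7%.

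Kit, the receptor, was lowest in pair A, intermediate in pair B and highest in pair C, with no overlap between the pairs. The gene spans bases 75574916 to 75656722 on the plus strand of chromosome 5 and is the longest of the 7 in exon length, 8911 bases. Kit measured 2.24 FPKM in A1, 1.10 in A2, 3.28 in B1, 3.01 in B2, 4.76 in C1 and 4.45 in C2. These levels came from 11 reads (A2) to 66 reads (C1). The 95% Poisson intervals of the nearest libraries of A and B, and of B and C, overlapped. The pair means were 1.67 ± 0.81, 3.14 ± 0.20 and 4.61 ± 0.22 FPKM (SD, n = 2). Of all tested genes, 5.24% had 3 pairs that did not overlap, in any order, and 0.796% had the order of Kit, A below B below C. Of the libraries that stood apart, A2 was the lowest for Kit and C2 the next to highest.

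Of the oocyte transcription factors, Lhx8 and Nobox were detected in each of the 6 libraries at low levels. Lhx8, a LIM homeobox factor, measured 3.55 FPKM in A1, 2.12 in A2, 4.06 in B1, 3.64 in B2, 4.57 in C1 and 3.92 in C2, on 6 to 18 reads. Pair A was below both others, and pairs B and C overlapped. The nearest values of A and B, in A1 and B2, rested on 9 and 11 reads. Their 95% Poisson intervals, 1.63 to 6.75 and 1.82 to 6.51 FPKM, overlapped. The interval of A1 also overlapped that of C2, the C library nearest to it. Of all tested genes, 31.7% had no overlap between pairs B and A, and 26.9% between C and A. Across the 6 libraries the levels of Lhx8 and Kit had a Pearson r of 0.94, and Lhx8 and Dazl one of 0.78. These are descriptions over 6 libraries that share depth and scaling, with counting error in each value.

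Nobox, the oocyte homeobox factor, measured 4.47 FPKM in A1, 2.22 in A2, 3.14 in B1, 3.74 in B2, 2.88 in C1 and 0.55 in C2. The value in C2 was 1 read (95% Poisson interval 0.014 to 3.05 FPKM), and the other libraries had 5 to 9 reads. The lower mean of pair C, 1.71 ± 1.65 FPKM (SD, n = 2), therefore rests on that library. Nobox lies on chromosome 6, bases 43303674 to 43309554, and Lhx8 on chromosome 3, bases 154306294 to 154330659, both on the minus strand.

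The 2 basic helix-loop-helix factors were at the limit of detection. Figla activates the zona pellucida genes in oocytes (chromosome 6, 86016171 to 86020996, plus strand). It had 2 reads in A1, or 2.39 FPKM, and 0 in the other 5 libraries. In these the limit of 3 reads lay at 2.31 FPKM (C1) to 3.96 FPKM (C2), and the Poisson intervals reached 2.84 and 4.86 FPKM. Sohlh1 acts at the start of germ cell differentiation (chromosome 2, 25842995 to 25847248, minus strand). It had 1 read in A2, 2 reads in B2 and 0 in the other 4. There the limit of 3 reads lay at 1.5 FPKM (C1) to 2.57 FPKM (C2), and the Poisson intervals reached 1.84 and 3.15 FPKM. Levels up to these limits could not be told from absence at this depth, and no fold change is given.

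Between the pairs, differences were tested on log2(FPKM + 1) with limma over all 13443 genes. The fold changes below are on that scale, on which low genes appear to change less than they do in FPKM. The filter passed 5 of the 7 members, and of these 0 were called in any comparison, where 0% of all tested genes were called (limma, adjusted p under 0.05). A fit of limma-voom to the recovered reads also called 0 of the 5. The 3 comparisons share libraries, so their results are not independent.

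In pair B against pair A, Dazl had higher and Ddx4 lower values in B, neither past the threshold. Read by the annotation, it sets wild-type actin against no injection, and read by the titles, R62D against wild type. For Dazl the log2 fold change was 1.16 ± 0.41 (SE; unadjusted p = 0.0250, adjusted p = 0.991, limma). For Ddx4 it was -1.11 ± 0.48 (unadjusted p = 0.0538, adjusted p = 0.991, limma). Kit had 0.66 ± 0.42, Lhx8 0.36 ± 0.40 and Nobox 0.08 ± 0.57 (SE), and their 95% intervals included 0. The pairs did not overlap for 4 of the 5 members, 3 higher and 1 lower in B, and for 31.7% of all tested genes. For Ddx4, Kit and Lhx8 the 95% Poisson intervals of the nearest libraries of the pairs overlapped, and for Dazl they did not. At an unadjusted p under 0.05 were 1 of 5 members and 4.57% of all genes. Without A2 the Dazl value was 0.76, without B2 the Ddx4 value was -0.53 and without A2 the Kit value was 0.35 and the Lhx8 value 0.089. Over all omissions of a single library, Ddx4 ranged from -1.69 to -0.53 and Lhx8 from 0.089 to 0.63. Nobox had -0.30 without A2, -0.019 without B2 and 0.46 without A1. With A2 and C2 both left out the values were 0.76 for Dazl, -1.49 for Ddx4 and 0.35 for Kit.

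Pair C against pair A had its largest member difference in Kit, higher in C and short of the threshold. Here the annotation gives R62D against no injection, and the titles give no injection against wild type. The log2 fold change of Kit was 1.10 ± 0.42 (SE), with a 95% interval of 0.12 to 2.08, an unadjusted p of 0.0329 and an adjusted p of 1 (limma). Dazl had 0.62 ± 0.41, Lhx8 0.47 ± 0.40, Ddx4 0.11 ± 0.48 and Nobox -0.78 ± 0.57 (SE). The pairs did not overlap for 2 of the 5, Kit and Lhx8, and for 26.9% of all tested genes. For both members the 95% Poisson intervals of the nearest libraries, A1 and C2, overlapped. At an unadjusted p under 0.05 were 1 of 5 members and 3.01% of all genes. For Kit the value was 0.79 without A2, and 0.83 with A2 and C2 both left out. Nobox had -0.12 without C2 and -1.44 without C1. The Dazl value was 0.22 without A2, 0.21 without C1 and 1.02 without C2, and the Lhx8 value was 0.20 without A2 and 0.75 without A1. Over all omissions of a single library, Ddx4 ranged from -0.28 without A2 to 0.49 without A1.

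In pair C against pair B, the values of Ddx4 were higher in C, short of the threshold. The annotation makes this R62D against wild-type actin, and the titles make it no injection against R62D. The log2 fold change of Ddx4 was 1.21 ± 0.48 (SE), with a 95% interval of 0.08 to 2.34, an unadjusted p of 0.0385 and an adjusted p of 1 (limma). Without B2 it was 0.63, and without B1 1.79. Kit had 0.44 ± 0.42, Lhx8 0.11 ± 0.40, Dazl -0.55 ± 0.41 and Nobox -0.86 ± 0.57 (SE). Dazl came to -0.14 without C2 and -0.95 without C1, and Nobox to -0.19 without C2 and -1.52 without C1. Lhx8 had 0.20 without C2, 0.049 without B2 and 0.022 without C1. The pairs did not overlap for 4 of the 5 members, 2 higher in C (Ddx4 and Kit) and 2 lower (Dazl and Nobox). Of all tested genes, 30.2% did not overlap. For each of these 4 members the 95% Poisson intervals of the nearest libraries of the pairs overlapped. At an unadjusted p under 0.05 were 1 of 5 members and 3.85% of all genes.

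**Figure D3:**
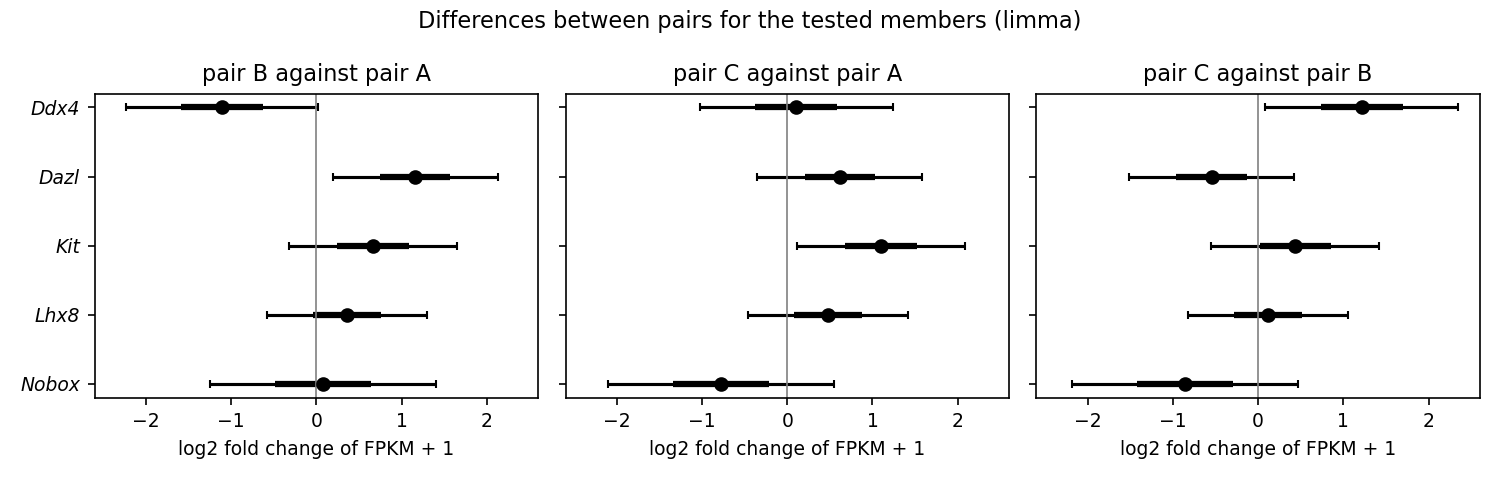
Log2 fold change of FPKM + 1 (horizontal axis) for the 5 tested members (vertical axis) in the 3 comparisons; thick bars are standard errors and thin bars 95% intervals from limma. Only the intervals of Dazl in B against A, Kit in C against A and Ddx4 in C against B exclude 0, before adjustment for the number of genes.

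Other genes of the same pathways were drawn from 4 lists. Of 27 germ cell RNA regulators, partners and relatives of Ddx4 and Dazl, 17 were tested. In this list 0 were called in any comparison (limma, adjusted p under 0.05), and 1, Nanos3, had an unadjusted p under 0.05. Nanos3, an RNA-binding protein needed by primordial germ cells, measured 7.57 FPKM in A1, 6.78 in A2, 5.99 in B1, 5.44 in B2, 20.2 in C1 and 9.54 in C2. Its log2 fold change in C against B was 1.16 ± 0.42 (SE, unadjusted p = 0.0276, adjusted p = 1, limma). Only C1 rested on more than 8 reads (29 reads). The highest genes of the list were Mael, a piRNA pathway protein, with 42.9 ± 30.7, 28.6 ± 8.78 and 21.9 ± 2.13 FPKM in pairs A, B and C (SD, n = 2), the poly(A)-binding protein gene Pabpc1 with 26.3 ± 11.5, 32.3 ± 6.20 and 25.5 ± 3.25 FPKM, and the translational repressor gene Pum2 with 21.1 ± 5.14, 17.9 ± 1.20 and 15.9 FPKM. Boll, the closest relative of Dazl, had at most 3 reads in any library.

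Of 15 factors related to the transcription factors among the members, each had reads in at least 1 library and 6 passed the filter. These 6 were tested and 0 were called or had an unadjusted p under 0.05 in any comparison (limma). Taf4b, a germ cell subunit of the general factor TFIID, measured 30.2 ± 3.46, 25.0 ± 2.01 and 30.8 ± 2.44 FPKM in pairs A, B and C (SD, n = 2). Tfap2c and Prdm14, factors of primordial germ cell specification, had means of 9.64 and 4.81 FPKM over the 6 libraries. Tcf12, an E protein with which basic helix-loop-helix factors such as Figla can pair, had a mean of 1.86 FPKM, and Tcf3, another E protein, 0.63 FPKM. Sohlh2, the partner of Sohlh1, had at most 3 reads in any library.

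Oocyte genes that these factors control, or that are expressed beside them in oocytes, had means from 1.03 FPKM (Pou5f1, a pluripotency factor, on 17.5 reads in all) to 622.9 FPKM (Oosp1). All 12 genes of this list passed the filter, and 0 were called or had an unadjusted p under 0.05 in any comparison (limma). Oosp1, an oocyte-secreted protein gene, measured 299.1 to 865.1 FPKM, Npm2, an oocyte histone chaperone, had a mean of 106.8 FPKM and Zp3, of the zona pellucida, one of 91.4 FPKM. The median level of the list, relative to the mean of the 6 libraries on the log2 scale, was -0.60 in A2 and -0.58 in C2, and 0.11 to 0.53 in the other 4. Dazl and Nobox had their 2 lowest values in the same libraries, and Kit did not. Whether the 2 facts are connected was not tested.

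Of 43 genes of Kit signalling 29 were tested, and 0 were called or had an unadjusted p under 0.05 (limma). The ligand gene Kitl measured 0.85 FPKM in A1, 0.91 in A2, 0.80 in B1, 1.70 in B2, 1.31 in C1 and 1.68 in C2, on 5 to 12 reads. Its log2 fold change in C against A was 0.40 ± 0.50 (SE). Coefficients were above 0 for 22 of the 29 genes in B against A, with a median of 0.23, and for 20 of 29 in C against A, with a median of 0.12. Over all tested genes 55.1% and 56.5% of coefficients were above 0 and the medians were 0.07 and 0.06. In C against B the count was 12 of 29 and the median -0.10, against 49.9% and 0.00 over all genes. The highest genes were Jak2, a cytoplasmic tyrosine kinase, with a mean of 99.8 FPKM, and Map2k1, a kinase of the MAP kinase pathway, with 16.2 FPKM.

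**Figure D4:**
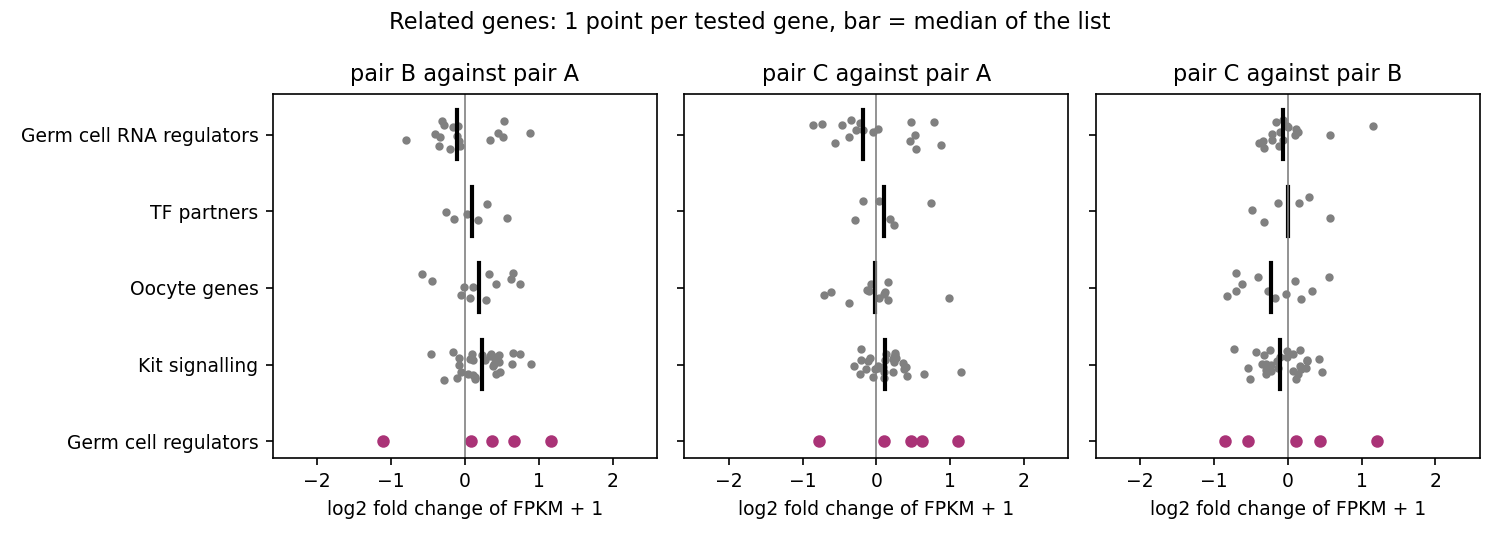
Log2 fold change of FPKM + 1 (horizontal axis) of each tested gene in 4 lists and of the 5 tested germ cell regulators (vertical axis), for the 3 comparisons; black bars are medians of lists. Points of each list lie on both sides of 0, and the 5 regulators spread from -1.11 to 1.16 in B against A.

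Other cells that a pool could hold were looked for by their markers. Of 22 cumulus and granulosa cell markers, 8 were at 0 in the 6 libraries, among them the defining Foxl2, Fshr and Inha. Others were present: Nr5a2 had a mean of 11.1 FPKM on 468.5 reads, Gja1 one of 2.11 FPKM on 153 reads, and Amhr2 had 2.75 FPKM in C2 to 8.03 in C1, on 80 reads in all. Tnfaip6 had 0 and 1 read in A, 5 and 5 in B and 4 and 2 in C, and its log2 fold change in B against A was 1.45 ± 0.50 (SE, unadjusted p = 0.0227, adjusted p = 0.991, limma). The summed level of the list was 15.9 to 22.4 FPKM in A, 20.02 to 28.0 in B and 18.4 to 26.2 in C. Of 15 sperm and spermatid transcripts, 7 were at 0, including Prm1, Tnp2 and Acr, while Ldhc had a mean of 36.0 FPKM on 402.5 reads and Odf2 one of 3.13 FPKM on 233.5 reads. The sum was 41.0 to 43.8 FPKM in A, 33.7 to 54.6 in B and 34.2 to 43.5 in C. Of 10 blood cell markers, 4 were at 0, among them Hbb-bt, Hbb-bs and Cpa3. The haemoglobin genes Hba-a1 and Hba-a2, near-identical copies, had means of 22.4 and 19.5 FPKM, and Hba-a1 ranged from 4.75 in C2 to 42.3 in A1. The sum was 17.0 to 82.7 FPKM in A, 48.4 to 77.5 in B and 13.5 to 33.1 in C. Nr5a2 alone gave 7.80 FPKM of the cumulus and granulosa sum in A1 and 14.0 in A2. Ldhc gave 39.9 and 34.0 FPKM of the sperm and spermatid sum in the same libraries. Whether reads on these markers came from such cells or from the embryos was not tested. The part of such cells in the members' levels was not tested either.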

How the data were processed

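The deposited values are FPKM made by the authors, per the file header's gene lengths and the labels. Per the submitters' processing notes, the build was mm10 and the tools included STAR, featureCounts, cutadapt, Trim Galore and Trimmomatic. For annotation and strand setting, the sources used here give nothing. FPKM multiplied by length gave reads up to 1 factor per library, taken from the most frequent value (1 read). With it, 100% of values were multiples of 0.01 read (tolerance 0.0002 read) and 55.6% to 57.9% were whole (tolerance 0.001 read). The table held 0 spike-in rows, so no spike-in scaling was made.

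Genes averaging at least 1 FPKM were fitted as log2(FPKM + 1) with 1 mean per pair and a variance trend (limma 3.58.1, R 4.3.3) and adjusted by Benjamini-Hochberg (threshold 0.05). The method was run on simulated data whose changes were larger than the differences seen in the members. That run therefore does not show what could be detected for the members. GENCODE M21 holds 99.8% of the table's gene IDs (version suffix ignored). The members and the lists were chosen with earlier results of these data known. Named list genes are the 3 with the highest mean FPKM, up to 4 with an unadjusted p under 0.05, and Kitl, Sohlh2, Tcf3, Tcf12 and Boll, and 1 gene that this rule names is not reported here. For members with a mean of at least 5 FPKM, the 3 genes with the highest Pearson r are named. Pseudocounts, filters, scalings, variance trend, samples fitted, replicate block, limma-voom and omission of each library were varied.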

Additional observations from a re-analysis of the deposited data

How the results depend on the processing

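No member was called in any of the 17 alternatives (limma, adjusted p at least 0.845 over 246 values), and 239 of the 246 values kept their direction. The 7 that turned were small differences. Ddx4 in C against A (0.11) ranged from -0.28 to 0.49 when single libraries were left out and was -0.12 with A2 and C2 both left out. Nobox in B against A (0.08) ranged from -0.30 to 0.46 when single libraries were left out, was -0.0042 after quantile normalization and was -0.30 with A2 and C2 both left out. With a pseudocount of 0.1, 1 gene was called in C against B where 0 were called with 1 (Igkv13-87, adjusted p = 0.0342, limma), with 0 reads in both C libraries and 10 in each B library. The number of genes at an unadjusted p under 0.05 in C against B, C against A and B against A was 518, 405 and 614. It was 936, 778 and 1027 with no filter (26934 genes), 274, 151 and 287 at 5 FPKM (7086 genes) and 347, 241 and 401 for protein-coding genes (8936 genes). Replicate numbers are shared between pairs, but no label says that they mark a shared mating or day, and same-numbered libraries deviated together at r = 0.10 (A and B), 0.20 (A and C) and 0.0050 (B and C). With the replicate number as a block 0 genes were called in each comparison, and 671, 497 and 724 had an unadjusted p under 0.05. The fits without A2 and C2 and on protein-coding genes were added after seeing the data. Kit, Lhx8 and Nobox have no value with the filter at 5 FPKM. Nobox and Lhx8 rested on 1 to 18 reads a library and Figla and Sohlh1 on at most 2, so differences of these 4 genes are limited by depth.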

Other observations

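Genes whose levels over the 6 libraries followed Dazl or Ddx4 most closely were sought among the 7085 other genes averaging at least 5 FPKM. For Ddx4 they were Gnrh1, the precursor of gonadotropin-releasing hormone (r = 1.00 after rounding), Taf1b, of the RNA polymerase I machinery (r = 0.99), and Srek1ip1 (r = 0.98). Gnrh1 measured 136.3 FPKM in A1, 92.0 in A2, 91.1 in B1, 52.2 in B2, 132.2 in C1 and 108.2 in C2. For Dazl they were Cfap36, Evi5 and Atl2 (r = 0.99 each). Evi5 measured 36.9 FPKM in A1, 24.1 in A2, 44.7 in B1, 49.9 in B2, 48.7 in C1 and 32.6 in C2. With 6 libraries and this many genes searched, such values describe a likeness in these pools and have no test.

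Among genes of Kit signalling, Mapk3, which encodes the kinase ERK1, was singled out after its values were seen. It measured 22.8 FPKM in A1, 3.57 in A2, 17.5 in B1, 13.4 in B2, 24.5 in C1 and 3.91 in C2. A2 and C2, on 9 and 8 reads, lay below the other 4 libraries, as they did for the growth factor gene Gdf9, at 12.8 and 5.70 FPKM against 23.1 to 37.7 FPKM. Plcg1, a phospholipase of the same pathway, had 1 read in all 6 libraries together.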
